A study of Mus musculus with 26 samples.

Results

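The accessible chromatin of TrkC neurons at E11.5 (E, embryonic day) was described across the protein-coding genes of the mouse. Its members were the 64227 consensus ATAC peaks, of 159182 consensus peaks that the series holds for ATAC, H3K27Ac, Runx3, Brn3a and Isl1. Each peak was given to the protein-coding gene whose transcription start site (TSS) lay nearest to the midpoint of the peak, in GENCODE M21 on mm10, which lists 21938 such genes on the nuclear chromosomes. ATAC-seq was done in 3 of the 26 samples, with 50000 cells in each. The cells came from dorsal root ganglia (DRG) of E11.5 embryos that carried BAC-E-GFP, a transgene of 220 kb in which the regulatory region of *Runx3* drives GFP, and cells positive for GFP were sorted. DRG of many embryos were pooled, and the study's methods state that in some experiments neurons were isolated with magnetic beads from GFP-positive or WT mice instead. No untreated or mutant group belongs to the ATAC samples, so no contrast between conditions was made. A consensus peak was one found in at least 2 of the 3 samples, and the list gives positions without signal, score or read count. The depth of the samples is therefore unknown, the spread between them was not measured, and intervals below are 95% Wilson intervals that cover counting error only. Fewer cells with an open site and less opening per cell cannot be told apart in such bulk samples.

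In ATAC-seq a transposase inserts adapters where DNA is not wrapped tightly in nucleosomes, so its peaks mark promoters, enhancers and insulators that are free for proteins to bind. Promoters rich in CpG dinucleotides are open in most tissues, whereas promoters poor in CpG and distal sites tend to open in particular cell types. TrkC neurons of the DRG become proprioceptors, which report muscle stretch. They depend on neurotrophin-3 acting through the receptor TrkC, encoded by *Ntrk3*, and on the transcription factors (TFs) Runx3, Brn3a (encoded by *Pou4f1*) and Isl1.

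The sequences of 4 promoters show how base composition can differ between open and closed promoters, although many genes with an open promoter had a first TSS poor in CpG. Each is the 300 bases around a RefSeq start on GRCm38.p6, most of them before the start, 5′ to 3′ on the strand of its gene, with every CpG in capitals. *Tubb3* (chr8:123411303-123411602), which encodes a neuronal tubulin, and *Isl1* (chr13:116309639-116309938) had open promoters. *Alb* (chr5:90460620-90460919), which encodes the serum albumin made by liver, and the olfactory receptor gene *Olfr16* (chr1:172956518-172956817) had closed ones.
Tubb3: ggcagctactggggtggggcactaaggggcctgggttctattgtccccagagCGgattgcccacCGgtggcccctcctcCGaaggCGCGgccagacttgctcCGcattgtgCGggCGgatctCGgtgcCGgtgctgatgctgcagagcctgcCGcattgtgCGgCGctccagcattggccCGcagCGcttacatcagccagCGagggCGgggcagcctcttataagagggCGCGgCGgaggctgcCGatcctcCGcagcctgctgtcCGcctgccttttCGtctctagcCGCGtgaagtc
Isl1: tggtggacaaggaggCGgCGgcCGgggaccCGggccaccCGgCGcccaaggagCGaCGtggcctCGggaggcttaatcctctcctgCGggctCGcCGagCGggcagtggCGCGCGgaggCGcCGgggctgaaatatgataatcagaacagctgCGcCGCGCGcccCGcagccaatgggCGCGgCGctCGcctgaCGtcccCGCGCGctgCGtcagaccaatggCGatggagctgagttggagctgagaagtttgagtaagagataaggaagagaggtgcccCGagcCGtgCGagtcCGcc
Alb: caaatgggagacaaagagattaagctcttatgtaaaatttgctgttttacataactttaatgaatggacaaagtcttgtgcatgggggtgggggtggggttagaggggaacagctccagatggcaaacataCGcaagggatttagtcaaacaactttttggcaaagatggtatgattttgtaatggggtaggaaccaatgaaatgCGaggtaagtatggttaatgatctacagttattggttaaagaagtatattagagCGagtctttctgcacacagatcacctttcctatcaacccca
Olfr16: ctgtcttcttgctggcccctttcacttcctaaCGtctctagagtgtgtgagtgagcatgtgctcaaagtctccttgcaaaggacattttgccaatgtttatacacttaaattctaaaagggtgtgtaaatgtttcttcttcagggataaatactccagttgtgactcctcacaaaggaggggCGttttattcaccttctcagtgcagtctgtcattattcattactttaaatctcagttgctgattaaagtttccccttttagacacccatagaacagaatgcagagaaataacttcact
These 300 bases hold 26 CpG in *Tubb3* and 37 in *Isl1*, against 3 in *Alb* and 2 in *Olfr16*. Their GC content was 67.3% and 69.0% in the open promoters and 40% in each of the closed ones.

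Of the 64227 peaks, 19452 (30.3%, 29.9–30.6%) had their midpoint within 1 kb of a TSS and were counted as promoter peaks, and 44775 (69.7%, 69.4–70.1%) were distal. The promoter windows make up 2.44% of the sequenced genome and held 301.1 promoter peaks per Mb, against 17.3 distal peaks per Mb elsewhere. The peaks together covered 16.4 Mb, or 0.619% of the genome. Promoter peaks were wider: their median was 304 bp (196 and 463 bp at the quartiles), and that of distal peaks 181 bp (136 and 254 bp). Their median GC content was 65.7% against 51.5%, and they held a median of 8.25 CpG per 100 bp against 1.63. Of the distal peaks, 18869 (42.1%) lay in introns, 2422 (5.41%) in exons and 23484 (52.4%) outside protein-coding genes. The same classes made up 35.3%, 3.09% and 61.6% of the genome beyond the promoter windows, so distal peaks were placed in genes more often than bases were.

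Distal peaks lay a median of 34.1 kb from the nearest TSS (quartiles 11.7 and 97.8 kb). At over 100 kb from any protein-coding TSS were 10975 of them (24.5%, 24.1–24.9%), and at over 500 kb 1402 (3.13%). H3K27Ac, an acetyl mark on histone H3 found at active promoters and enhancers, overlapped 87.9% of ATAC peaks within 200 bp of a TSS, 35.7% of those 1 to 10 kb away and 7.13% of those beyond 500 kb. Brn3a peaks overlapped 27.1% of the ATAC peaks within 200 bp of a TSS and 15.6% of those between 200 bp and 1 kb away, and the share then rose with distance, from 16.2% at 1 to 10 kb to 28.3% at 50 to 100 kb and 47.7% beyond 500 kb. Isl1 peaks overlapped 4.3% within 200 bp, 8.94% at 1 to 10 kb, 17.5% at 50 to 100 kb and 29.8% beyond 500 kb. Runx3 overlapped 36.0% of the peaks within 200 bp of a TSS and between 10.7% and 14.1% in each class beyond 1 kb. An overlap was 1 bp in common after short peaks were extended, to 500 bp for ATAC and to 300 bp for the other lists. Distal width moved with the same overlaps, and its part in the trend with distance was not tested. H3K27Ac overlapped 11.7% of the distal peaks of 69 to 136 bp and 53.3% of those of 255 to 1517 bp, while the median width changed between 171 and 192 bp over the distal distance classes.

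**Figure D1:**
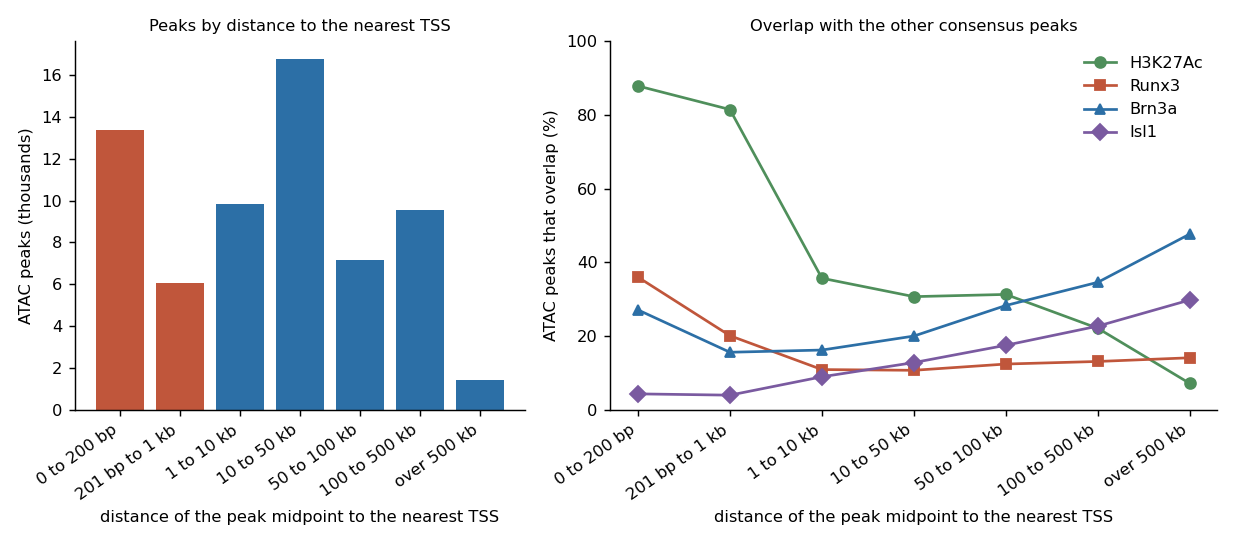
Left, number of ATAC peaks in classes of distance from the peak midpoint to the nearest protein-coding TSS, with promoter classes in red and distal classes in blue. Right, percent of the ATAC peaks of each class that overlap a consensus peak of H3K27Ac, Runx3, Brn3a or Isl1; H3K27Ac runs from 87.9% within 200 bp to 7.13% beyond 500 kb and Brn3a reaches 47.7% beyond 500 kb.

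Of the 5 peaks farthest from a protein-coding TSS, 4 lay nearest to protocadherin genes of chromosome 14, which encode cell adhesion molecules of neurons. The farthest, 272 bp wide, lay 2680 kb from the TSS of *Pcdh20* and overlapped none of the other lists. A peak 2342 kb from *Pcdh20* overlapped both Brn3a and Isl1, and a peak 2255 kb from *Pcdh9* overlapped Brn3a. The fifth, on chromosome 8 and 2195 kb from *Aga*, which encodes a lysosomal enzyme, overlapped Runx3, Brn3a and Isl1. None of the 5 farthest peaks overlapped H3K27Ac. The widest ATAC peak, 1517 bp, lay 32.0 kb from the nearest TSS, that of the zinc finger TF gene *Zbtb20*, and overlapped H3K27Ac, Runx3, Brn3a and Isl1. Of the other 9 of the 10 widest peaks, which measured 1341 to 1463 bp, each lay within 305 bp of a TSS. They included the promoters of *Ep300*, which encodes a histone acetyltransferase, *Gsk3b*, which encodes a kinase of Wnt signaling, and *Gnaq*, which encodes a G protein subunit.

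Short motifs were searched on the plus and minus strands of every peak, and flanks of equal width, shifted by 2 kb in each direction, served as the background. The CTCF core (CC, any 3 bases, AGG, any base, GGC), named for the insulator protein, was in 5129 of the 44775 distal peaks, 17.5 times its share in their flanks (0.654%), and in 9.45% of promoter peaks against 1.21%. It was in 1.98% of the distal peaks that overlapped both Brn3a and Isl1. Promoter peaks were rich in the GC box (GGGCGG, 66% against 5.76% of flanks), the ETS core (CCGGAAG, 15.9% against 1.46%) and the NRF1 site (GCGC, any base, TGCGC, 9.36% against 0.162%). The homeobox core (TAATTA) was in 5.29% of distal peaks and 6.07% of flanks, and in 13.5% of the distal peaks with Brn3a and Isl1. The Brn3 core (CAT, any 3 bases, TAAT) was in 3.75% of distal peaks, 3.81% of flanks and 642 of the 5564 distal peaks with Brn3a and Isl1. The RUNX core (ACCACA, with G also allowed as the first or the fourth base) was in 38.0% of distal peaks against 28.4% of flanks and in 64.7% of those that overlapped Runx3. Other motifs were also more frequent in the distal peaks with Brn3a and Isl1, such as the GATA core (AGATAA, 14.5% against 7.12% of all distal peaks) and the AP-1 site (12.1% against 7.17%). Several were less frequent, such as the GC box (6.81% against 12.2%). Brn3a overlapped 41.1% of distal peaks of 255 to 1517 bp and 11.6% of those of 69 to 136 bp. The subsets had no flanks of their own, and the part of width was not tested. Base composition also differs between peaks and flanks, so these shares describe letters and not binding.

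The next 2 sequences show such a match in a distal peak of each kind, read on the plus strand of mm10 with the motif in capitals. The first (chr14:104250252-104250360) was given to *Pou4f1*, which encodes Brn3a itself, and overlapped Brn3a and Isl1. The second (chr7:49121388-49121548) was given to *Nav2*, a neuron navigator gene, and holds the CTCF core on the minus strand.
Pou4f1 distal peak: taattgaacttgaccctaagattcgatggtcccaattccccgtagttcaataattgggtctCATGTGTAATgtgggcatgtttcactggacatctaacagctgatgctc
Nav2 distal peak: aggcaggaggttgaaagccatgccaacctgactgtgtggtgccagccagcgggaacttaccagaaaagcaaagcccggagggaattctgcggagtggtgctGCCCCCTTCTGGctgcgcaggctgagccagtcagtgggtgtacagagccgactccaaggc
Of the 17 distal peaks of *Pou4f1*, 10 overlapped both Brn3a and Isl1, and 1 of those 10 held the Brn3 core. The CTCF core was in 6 of the 55 distal peaks of *Nav2*.

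At least 1 peak was given to 16538 genes (75.4%, 74.8–76.0%). No peak was given to 5400 genes (24.6%), although 574 of these had a promoter peak that lay nearer to the TSS of a neighbor. Over the 21938 genes the median was 2 peaks, 1 distal peak and 483 covered bp (quartiles 90 and 961 bp). The distribution was skewed: 90% of genes had at most 7 peaks, and the 219 genes with the most peaks held 5940 of them (9.25%). In all, 965 genes were given 10 or more distal peaks (4.4% of the protein-coding genes). They held 14881 distal peaks (33.2%) on 23.8% of the genome. Genes with many distal peaks had long stretches of sequence nearest to their TSS, with a median of 478 kb in these 965 genes against 46.2 kb over all genes. Across genes, Spearman's rho of stretch length and distal peaks was 0.61 as a description over 21938 genes that are not independent.

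*Robo1*, the receptor through which Slit proteins repel axons (chromosome 16, 72308306 to 73046095), had the most, with 56 distal peaks, of which 37 lay in its own body and 36 at over 100 kb from its TSS. They lay between 71622600 and 73280342, in a stretch of 1974 kb nearest to the TSSs of the gene, and 26 of them overlapped Brn3a, 12 Isl1, 3 H3K27Ac and 2 Runx3. Its 2 promoter peaks and 56 distal peaks together covered 12807 bp. *Nav2*, which acts in neurite outgrowth, had 55 distal peaks in a stretch of 672 kb, each of them in its own body, and 18 overlapped H3K27Ac. *Zfp608*, a zinc finger gene, also had 55, of which 45 lay outside its body, with 33 that overlapped Brn3a and 25 H3K27Ac, and its 56 peaks covered 15629 bp, the most of any gene.

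*Celf4*, which encodes a neuronal RNA-binding protein, had 48 distal peaks. *Tenm4*, a teneurin of synaptic adhesion, had 48, *Auts2* 47 and *Nrxn3*, a neurexin of the presynaptic membrane, 46. Of the 47 of *Auts2*, which encodes a neurodevelopmental regulator, 27 overlapped Brn3a and 23 Isl1. *Gse1* stood apart in density, since its 45 distal peaks lay in a stretch of 360 kb, and 36 of them overlapped H3K27Ac against 10 that overlapped Brn3a. *Nr2f1*, which encodes the nuclear receptor COUP-TFI, had 43, of which 42 lay outside its short body. *Ptprd*, an adhesion receptor with phosphatase activity, had 39 in 3033 kb, and 2 of them overlapped H3K27Ac. Among the 20 genes with the most distal peaks the overlap with H3K27Ac ran from 2 of 39 peaks in *Ptprd* to 36 of 45 in *Gse1*, and the overlap with Brn3a from 2 of 35 in *Zfp36l1*, an RNA decay factor, to 33 of 55 in *Zfp608*. Each of the 20 had an open promoter.

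**Figure D2:**
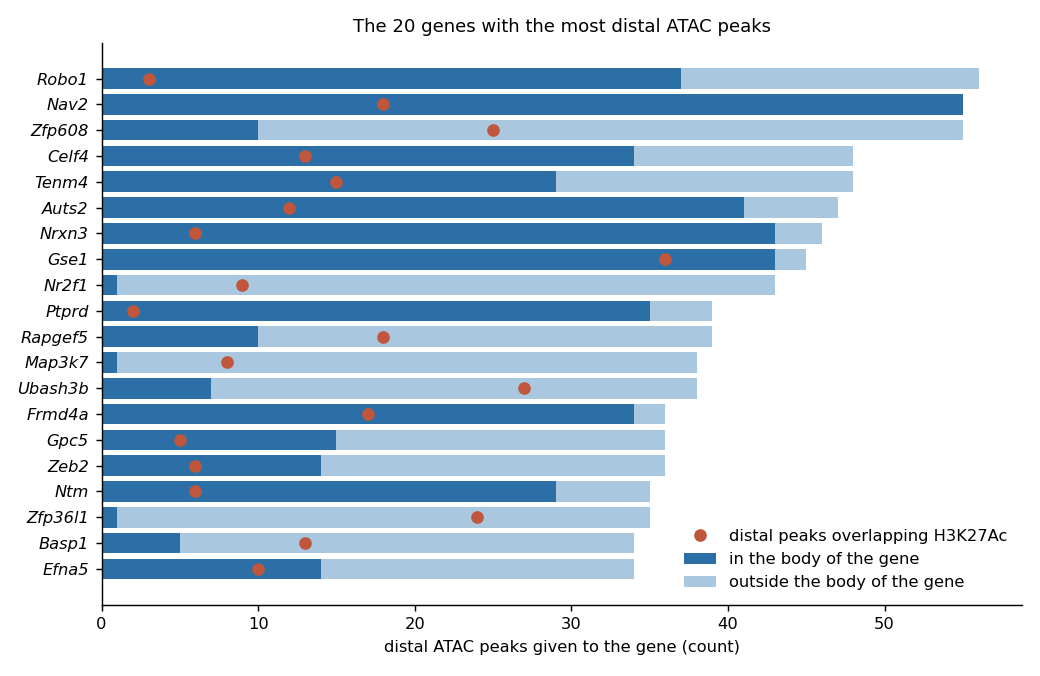
Distal ATAC peaks (count) given to the 20 protein-coding genes with the most, split into peaks inside (dark) and outside (light) the body of the gene; red points give the number that overlap H3K27Ac. *Robo1* has 56 distal peaks with 3 that overlap H3K27Ac, and *Gse1* 45 with 36.

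The order of these genes rests on how peaks are given to genes. With 1 TSS per gene, its 5′ end, the distal peaks came to 35 in *Nav2*, 31 in *Tenm4*, 26 in *Gse1*, 20 in *Frmd4a*, 19 in *Ptprd* and 15 in *Auts2*. With peaks of at least 200 bp only, *Zfp608* led with 36 and *Robo1* had 21. When a peak over 100 kb from a TSS was given to no gene, *Gse1* led with 39 and *Robo1* had 20.

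The genes that define the lineage had 15 to 23 distal peaks each. Under GREAT domains, in which a peak can belong to several genes, the counts came to 40 in *Runx3*, 30 in *Isl1* and 29 in *Pou4f1*. With peaks of at least 200 bp only, they came to 14 in *Runx3*, 10 in *Isl1*, 8 in *Ntrk3* and 7 in *Pou4f1*. When a peak over 100 kb from a TSS was given to no gene, *Pou4f1* had 11, *Ntrk3* 9 and *Isl1* 2. The stretch nearest to the TSSs was 1226 kb in *Ntrk3*, 962 kb in *Isl1* and 339 kb in *Pou4f1*. *Ntrk3* (chromosome 7, 78175959 to 78738012) had 18 peaks, of which 3 were promoter peaks and 13 of the 15 distal ones lay in its body. Of those 15, 6 overlapped H3K27Ac, 9 Brn3a, 7 Isl1 and 4 Runx3. *Pou4f1* (chromosome 14, 104461676 to 104467999) had 1 promoter peak and 17 distal peaks, of which 12 overlapped Brn3a, 11 Isl1 and 4 H3K27Ac. Its promoter was open with no H3K27Ac peak within 1 kb of the TSS. *Isl1* (chromosome 13, 116298281 to 116309689) had 16 distal peaks, none in its body and 14 at over 100 kb, of which 10 overlapped Brn3a and 1 H3K27Ac.

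*Runx3* (chromosome 4, 135120652 to 135177990) had 3 promoter peaks and 23 distal peaks in 187 kb, or 13.9 peaks per 100 kb against 2.36 over the genome. Of the 23, 22 overlapped H3K27Ac, 19 Isl1, 18 Runx3 and 9 Brn3a. The 220 kb of the BAC-E transgene hold all but 1 of the 23 (4:134955301-135175300 when its 3′ end is set at the last exon). This sequence was therefore present in additional copies, and open endogenous and transgenic copies cannot be told apart. The BAC-E stretch held 39 ATAC peaks, against 12 in the 220 kb on its 5′ side and 8 on its 3′ side. Some of the 39 were given to neighboring genes, and the same limit applies to them. Without the BAC-E stretch 1 distal peak of *Runx3* was left.

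Most promoters of the lists written for neurons were open, but these lists were written with earlier results of these data known. They are therefore no independent check of the label of neurons. A promoter was called open when an ATAC peak had its midpoint within 1 kb of any TSS of the gene, whichever gene the peak was given to, which held for 63.7% of protein-coding genes. Open promoters were found in 24 of 24 pan-neuronal genes, among them *Tubb3*, the Elavl genes of neuronal RNA-binding proteins and the neurofilament genes *Nefl*, *Nefm* and *Nefh*. The proprioceptor list had 18 of 20 and the TF genes of sensory neurons 30 of 34. The closed ones were *Ret* and *Spp1* in the first, and *Neurod2*, *Neurod6*, *Prdm12* and *Tlx2* in the second. *Ret* encodes the receptor of GDNF family ligands, *Prdm12* acts in nociceptors and *Tlx2* in enteric neurons. The study also lists *Prdm12* as a Runx3 target that is down-regulated without Runx3 and as expressed in proprioceptive clusters at E11.5. Families of neuronal channels and neurotransmitter receptors were lower, from 57.1% open in acetylcholine and serotonin receptor genes to 84.6% in glutamate receptor genes.

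Among the sensory TF genes, *Ebf1* had the most distal peaks with 31 in 666 kb, of which 10 overlapped H3K27Ac. *Klf7*, which encodes a TF needed for Trk expression, had 18 and *Insm1*, a zinc finger factor of neuronal differentiation, 16 in 116 kb. The list had a median of 6 distal peaks a gene against 1 over all genes, with 13 of 34 members (38.2%) at 10 or more against 4.4%. Axon guidance and adhesion genes went further, with 40 of 41 promoters open, a median of 13 distal peaks and 29 members (70.7%) at 10 or more. Their median stretch of 705 kb was also long, so that they held 1.88 peaks per 100 kb against 2.36 over the genome. *Efna5*, an ephrin ligand that guides axons, had 34, *Efnb2* 31, *Kirrel3* 28 and *Robo2* 27. *Slit1*, a ligand of the Robo receptors, was the exception with a closed promoter, 11 distal peaks and an H3K27Ac peak at its TSS.

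Markers of blood, liver and epidermis were mostly closed. Of 20 myeloid and lymphoid markers 1 was open, of 13 erythroid markers 2, of 15 liver markers 2 and of 11 epidermis markers 1. The defining myeloid genes *Itgam* and *Csf1r* had no peak, and *Spi1* had a closed promoter and 2 distal peaks. *Ptprc*, the pan-leukocyte marker CD45, had a closed promoter with 21 distal peaks, 18 of them at over 100 kb in a stretch of 657 kb. Endothelial markers were open in 4 of 12 cases, among them *Kdr*, and skeletal and heart muscle markers in 4 of 17, among them *Myod1* and *Actc1*.

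Mesenchyme markers were not closed: 14 of 15 (93.3%, 70.2–98.8%) had an open promoter, among them the collagen genes *Col1a1*, *Col1a2* and *Col3a1*. An H3K27Ac peak lay at 5 of the 15 promoters (33.3%) against 58.1% of all protein-coding genes. Glia and neural crest genes had 11 of 15 open. The glial defining gene *Sox10* was closed, with 1 distal peak, while *Sox2* had an open promoter and 29 distal peaks. The lists hold no level per sample, so the share of other cell types in the sorted cells was not tested. TF genes of spinal cord and brain showed the same split between opening and acetylation, with 30 of 40 promoters open and 7 (17.5%) with H3K27Ac. *Olig2* and *Lmx1b*, which specify progenitors or interneurons of the neural tube, had open promoters without H3K27Ac, and *Nkx2-2*, *Pax7* and *Dbx1* were closed.

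Among gene families, open promoters reached 78 of 78 mitochondrial ribosomal protein genes, 79 of 82 cytosolic ribosomal protein genes, 65 of 67 replication-dependent histone genes, 36 of 37 complex I genes and 37 of 40 proteasome genes. The closed cytosolic ribosomal protein genes were *Rpl10l*, *Rpl39l* and *Rpl3l*, paralogs expressed in testis or muscle, and the closed proteasome genes were *Psma8* and *Psmb11*, which belong to testis and thymus, and *Psmb10*, which belongs to the immunoproteasome. The median was 0 distal peaks in the mitochondrial ribosomal, complex I and proteasome lists and 1 in the cytosolic ribosomal list, against 1 over all genes. Their median stretches were short (17.3 to 28.7 kb against 46.2 kb), and they held 2.61 to 5.10 peaks per 100 kb against 2.36 over the genome. The ribosomal genes do share sequence with processed pseudogenes. The study states that reads without a unique position were removed, which could remove peaks from near-identical copies, but this was not tested.

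At the other end were the sensory receptor families. Of 1135 olfactory receptor genes 18 (1.59%, 1.01–2.49%) had an open promoter and 1036 (91.3%) were given no peak, against 24.6% of all protein-coding genes. Of 329 vomeronasal receptor genes 2 were open and 301 (91.5%) had no peak. Keratin genes had 0 of 53 open, which allows a share of up to 6.76% (95% Wilson interval), keratin-associated protein genes 0 of 57, defensin genes 1 of 64, Rhox genes 1 of 34 and kallikrein genes 1 of 26. Serpin genes were open in 11 of 61 and cytochrome P450 genes in 21 of 98, among which *Cyp26b1*, which degrades retinoic acid, had 11 distal peaks.

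Clustered protocadherins, cell surface proteins that give each neuron its identity and are encoded in tandem on chromosome 18, were closed in 51 of 57 cases (10.5% open), and 48 were given no peak. The open ones were *Pcdhac1*, *Pcdhac2*, *Pcdhga2*, *Pcdhga12*, *Pcdhgc3* and *Pcdhgc4*. *Pcdhgc5* had a closed promoter and 10 distal peaks, of which 9 overlapped H3K27Ac. In the other direction, zinc finger genes with Zfp symbols, of which many also lie in tandem clusters, were open in 353 of 394 (89.6%).

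**Figure D3:**
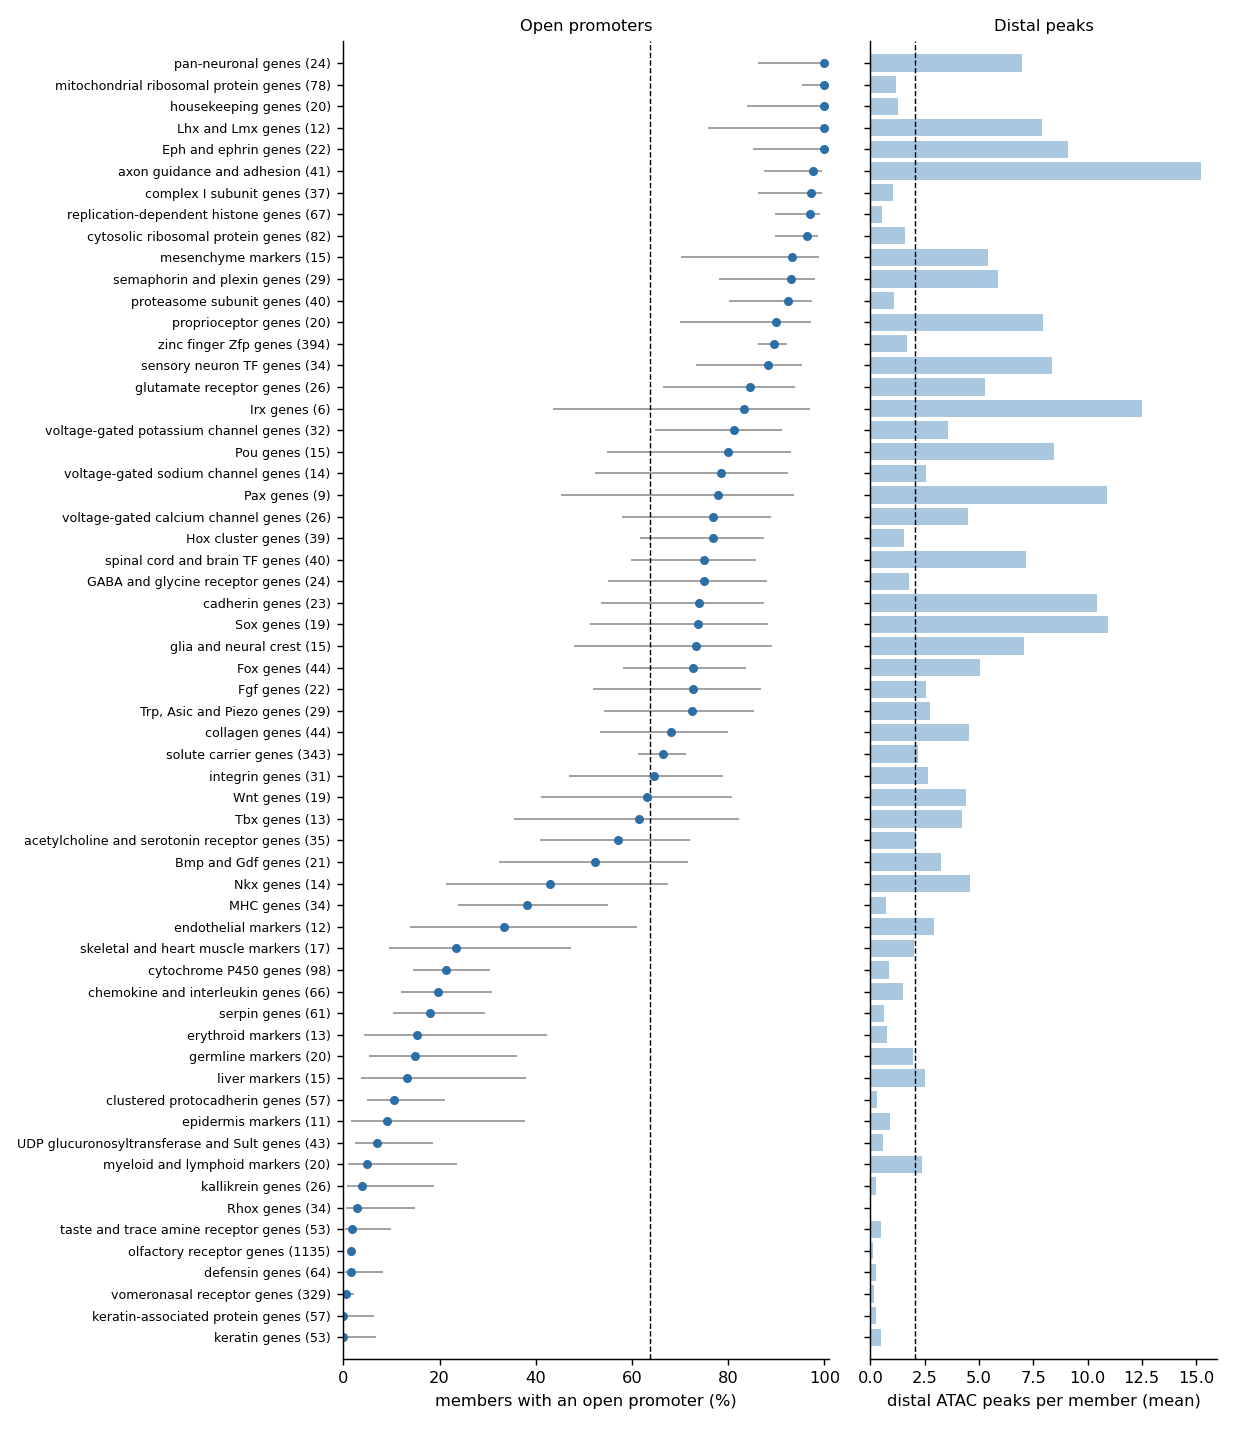
Left, percent of the members of each of 60 gene lists (number of members in parentheses) that had an open promoter, with 95% Wilson intervals and the 63.7% of all protein-coding genes as a dashed line. Right, mean number of distal ATAC peaks per member, with the mean over all protein-coding genes (2.04) as a dashed line. The pan-neuronal, ribosomal protein and guidance lists lie near 100%, and olfactory, vomeronasal and taste receptor, keratin and defensin families near 0%. Lists of neuronal channels and neurotransmitter receptors lie between, from 57.1% to 84.6%. Mesenchyme markers lie at 93.3% and proprioceptor genes at 90%. Distal peaks are highest in axon guidance and adhesion genes (15.2).

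Among the families chosen by symbol, Irx genes had the highest mean of distal peaks (12.5, median 12), followed by Sox genes (10.9, median 5), Pax genes (10.9, median 12), cadherin genes (10.4, median 6) and Eph and ephrin genes (9.09, median 5). Per 100 kb of stretch they held 2.69, 3.24, 5.10, 1.00 and 1.78 peaks in that order, against 2.36 over the genome. The median stretch of cadherin genes was 883 kb. Other developmental TF families had lower means of distal peaks, from 8.47 in Pou genes and 7.92 in Lhx and Lmx genes to 4.23 in Tbx and 1.56 in Hox genes. *Sox11*, a factor of neuronal differentiation, led the Sox genes with 30. *Pou3f3* had 31 and *Pax3*, a TF of neural crest and dorsal neural tube, 24. *Foxa2*, a TF of floor plate and endoderm, had a closed promoter with 18 distal peaks, and *Irx4* a closed one with 12. Hox genes, which lie in 4 compact clusters, held 12.6 peaks per 100 kb of their stretch against 2.36 over the genome, fewer than the 18.9 of the replication-dependent histone genes. Of 39 Hox genes 30 were open, and the 9 closed ones were *Hoxa11*, *Hoxa13*, *Hoxb8*, *Hoxc6*, *Hoxc9*, *Hoxc11*, *Hoxc12*, *Hoxd11* and *Hoxd12*. Of these *Hoxb8*, *Hoxc6* and *Hoxc9* had H3K27Ac at the promoter.

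Over the genome, 13970 genes (63.7%, 63.0–64.3%) had an open promoter and 7968 (36.3%) a closed one. The first TSS of an open promoter lay in sequence with a median of 58.8% GC and a CpG observed to expected ratio of 0.72, against 45.9% and 0.18 for closed promoters. Promoters were called CpG-rich when 500 bp on each side of that TSS had over 50% GC and a ratio over 0.6. A gene was called open if a peak lay at any of its TSSs, so the first TSS measured here need not be the open one. Of 9890 CpG-rich promoters 9583 (96.9%, 96.5–97.2%) were open, and of 12048 others 4387 (36.4%, 35.6–37.3%). H3K27Ac was found at 88.9% of open and 3.99% of closed promoters. Of the 307 closed CpG-rich promoters, 55 (17.9%, 14–22.6%) had H3K27Ac, against 263 of 7661 (3.43%) closed CpG-poor ones.

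**Figure D4:**
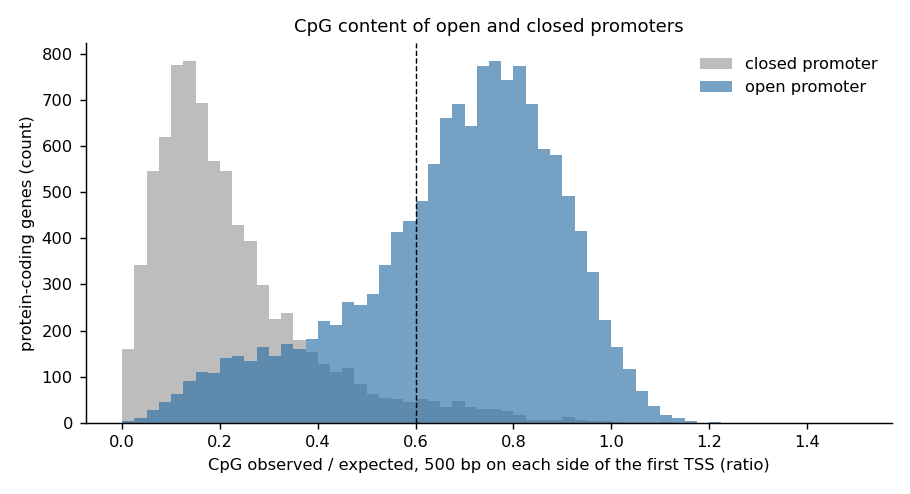
Number of protein-coding genes by the observed to expected ratio of CpG in 500 bp on each side of their first TSS, for open (blue) and closed (grey) promoters; the dashed line marks a ratio of 0.6, and values over 1.5 are drawn at 1.5. Closed promoters gather at low ratios (median 0.18) and open ones lie on both sides of the line (median 0.72).

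Distal peaks were more often found near genes with an open promoter. The promoter was open in 5398 of 10224 genes without a distal peak (52.8%), in 69.6% of genes with 1 to 4, in 81.3% with 5 to 9 and in 851 of 965 with 10 or more (88.2%, 86.0–90.1%). The median stretch rose over the same classes, from 26.4 to 58.4, 189 and 478 kb, and its part in the trend was not tested. Of the 7968 genes with a closed promoter, 4826 (60.6%) were given no peak at all. A closed promoter was joined to 5 or more distal peaks in 499 genes and to 10 or more in 114. *Gm11146* and *Gm26897*, predicted genes on chromosomes 16 and 5, led these with 31 distal peaks each, of which 16 and 18 overlapped H3K27Ac. *Dlg2*, which encodes a scaffold of the postsynaptic density, had a closed promoter and 25 distal peaks, all in its own body. *Fat4*, a large cadherin, had 23, *Nav3*, a relative of *Nav2*, 19 and *Slc10a2*, the bile acid transporter of the ileum, 20, of which none lay in its body and 11 overlapped Brn3a.

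The densest loci were gene-rich. The median 1 Mb bin held 22 peaks and the busiest 125 (7:19000001-20000000), of which 61 were promoter peaks. That bin held a TSS of 53 genes, of which 38 had an open promoter, and *Fosb*, an AP-1 factor gene, led with 9 peaks. The next bins were 11:69000001-70000000 with 116 peaks, where *Kdm6b*, which encodes a demethylase of histone H3, had 10, and 10:80000001-81000000 with 109, where *Gadd45b*, a stress response gene, had 7. Other bins led by their distal peaks. The bin 8:120000001-121000000 held 73 distal peaks and 10 genes, with 45 given to *Gse1*, and 5:111000001-112000000 held 71 distal peaks with TSS of 3 genes. A stretch of chromosome 11 (11:96000001-97000000) with 60 distal peaks contains the Hoxb cluster. When peaks less than 10 kb apart were joined, the largest group was 27 peaks in 69.3 kb around *Hist1h4h* and other histone genes of chromosome 13, followed by the Hoxa genes, with 24 peaks in 82.5 kb, and the Hoxb genes, with 23 in 104 kb.

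Several of the densest genes lay next to tRNA genes that carried peaks. Genes with the most peaks per 100 kb among those with 10 or more peaks were *Hist1h4h*, a histone H4 gene (48.8), *Gm47283* on the Y chromosome (39.9), *Fcgr3*, an immunoglobulin Fc receptor gene (33.8), and *Hoxd3* (33.6). Of the 8 distal peaks of *Hist1h4h* 6 lay on a tRNA gene annotated by RefSeq, as did 11 of the 14 of *Fcgr3*, 5 of the 11 of *Abt1* and 8 of the 14 of *Trim27*. *Fcgr3* was also the member that made the myeloid and lymphoid list open in 1 case. Over the genome 221 of 403 tRNA genes (54.8%, 50.0–59.6%) had a peak on them, with 64 of 105 on chromosome 13, 36 of 47 on chromosome 11, 30 of 37 on chromosome 1 and 3 of 53 on chromosome 6. By amino acid the share ran from 22 of 24 tRNA-Arg genes to 4 of 57 tRNA-Cys genes. Of the 178 distal peaks on tRNA genes, 67 (37.6%, 30.9–44.9%) overlapped H3K27Ac, against 29.3% of all distal peaks. The peak shown next was given to *Fcgr3* (chr1:171066563-171066781, plus strand of mm10), with the gene of a glycine tRNA in capitals.
Fcgr3 distal peak: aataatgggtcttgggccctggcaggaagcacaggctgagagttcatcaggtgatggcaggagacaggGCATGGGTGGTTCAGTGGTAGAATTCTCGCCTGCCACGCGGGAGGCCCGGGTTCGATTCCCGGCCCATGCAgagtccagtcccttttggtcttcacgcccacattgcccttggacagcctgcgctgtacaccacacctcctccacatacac

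The olfactory receptor gene with the most distal peaks was *Olfr1507*, with a closed promoter and 24 distal peaks between 52580476 and 53345815 on chromosome 14. This is the locus of the T cell receptor alpha chain, and 20 of the 24 peaks lay within 1 kb of the 5′ end of a V gene or V pseudogene of T cell receptors. None of the 24 overlapped H3K27Ac, 2 overlapped Brn3a, and their median width was 129 bp. Of 144 T cell receptor V genes 29 (20.1%) had an ATAC peak within 1 kb of their 5′ end, against 8 of 218 immunoglobulin V genes (3.67%), 2 of 70 T cell receptor J genes and 0 of 8 T cell receptor C genes. The V genes arose by duplication and 22 of the 24 peaks shared a run of 25 bases with another ATAC peak, against 5.66% of distal peaks over the genome. The peak printed next (chr14:53303498-53303721, plus strand of mm10) is repeated base for base within another peak of *Olfr1507* (chr14:52992276-52992551), and its capitals mark the bases in runs that both hold. Whether reads of near-identical copies were placed correctly was not tested.
Olfr1507 distal peak: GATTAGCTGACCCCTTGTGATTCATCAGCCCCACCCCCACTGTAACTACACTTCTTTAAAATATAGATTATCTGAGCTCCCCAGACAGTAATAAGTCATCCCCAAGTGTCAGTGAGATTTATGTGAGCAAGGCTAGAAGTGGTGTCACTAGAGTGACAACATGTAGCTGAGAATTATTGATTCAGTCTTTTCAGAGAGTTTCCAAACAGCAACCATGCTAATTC

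By chromosome, autosomes held between 21.6 peaks per Mb (chromosome 14) and 34.6 (chromosome 11), and the X chromosome 9.03. Promoter peaks made up 44.2% of the 1476 peaks on X, the highest share of any chromosome, since distal peaks were at 5.03 per Mb against 15.7 to 22.1 on autosomes. The X chromosome has 5.80 protein-coding genes per Mb, within the autosomal range of 5.50 to 14.3. Its promoters were open in 461 of 948 genes (48.6%), against 51.7% to 78.5% on autosomes. CpG-rich promoters were open in 95.1% of cases on X and 95% to 98.2% on autosomes, but 23.7% of X-linked genes had a CpG-rich promoter against 32.0% to 60.5%. *Bcor*, which encodes a corepressor, led the chromosome with 37 peaks. Male embryos carry a single X chromosome and in females 1 X is inactive, and the sexes pooled are not given in the sources used here.

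The Y chromosome had 35 peaks, of which 29 lay beyond position 90700000 near its distal end, and 4 of its 183 genes had an open promoter. Of the 14 distal peaks given to *Gm47283* near that end, 13 shared a run of 25 bases with another ATAC peak. A group of 17 peaks also lay near the distal end of X (X:169973370-170022378), 13 of them given to the predicted gene *Gm21887*. All 10 distal peaks of *Gm21887* shared such a run. Whether the X and Y peaks share runs with each other was not tested, so these peaks cannot be taken as particular to Y. Whether the reads of these peaks were placed correctly was not tested. Genes given a peak on Y were *Ddx3y*, *Eif2s3y*, *Kdm5d*, *Uty* and 3 predicted genes. On the autosomes chromosome 7 had the lowest share of open promoters (51.7%) and 398 olfactory and vomeronasal receptor genes, and chromosome 12 the highest (78.5%) and 0 of them. Chromosome 7 also had the most genes per Mb (14.3) and the fewest peaks per gene of the autosomes (1.96).

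**Figure D5:**
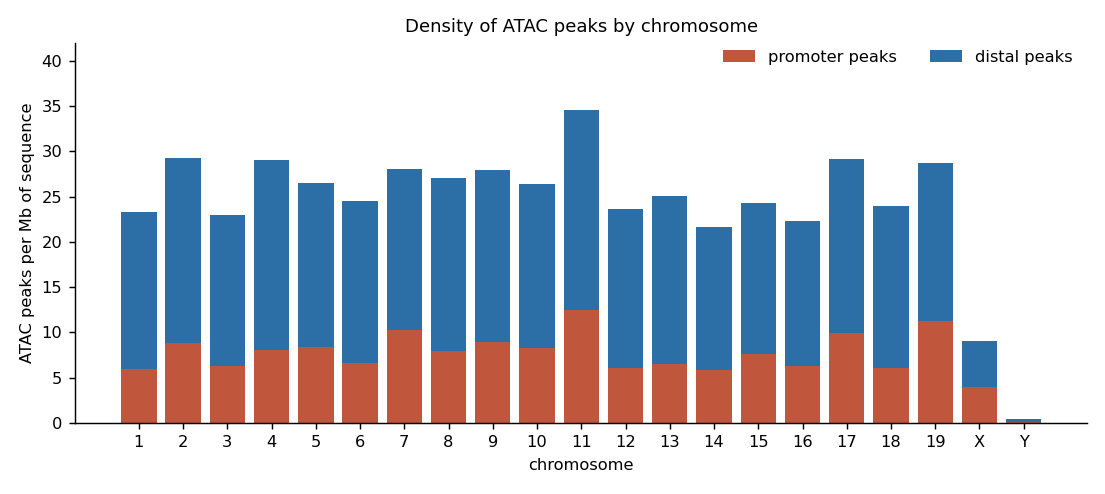
ATAC peaks per Mb of sequenced bases on each chromosome, split into promoter peaks (red) and distal peaks (blue). Autosomes lie between 21.6 and 34.6 peaks per Mb, the X chromosome at 9.03 and the Y chromosome at 0.397.

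Peak-free sequence gathered in receptor clusters and on the sex chromosomes. Of 2660 bins of 1 Mb, 171 (6.43%) held no peak, and 107 stretches of at least 1 Mb of sequence had none. These 107 stretches spanned 267 Mb with 1123 of the 21938 protein-coding genes, and 25 of the 107 lay on X. They held 319 of the 1135 olfactory and 152 of the 329 vomeronasal receptor genes, so most genes of each family lay outside them. A single stretch on Y made up 87.1 Mb and held 174 of the 1123 genes. The longest outside Y, of 10.4 Mb, held 49 genes on X, 17 of them of the Btbd35f family. The longest on an autosome (7:19956773-24081679) held 105 genes, 65 of them with Vmn symbols, and began inside the bin that was the densest of the genome. A stretch of 2.92 Mb on the same chromosome held 29 secretoglobin genes, and a stretch of 3.03 Mb on chromosome 17 held 30 vomeronasal receptor genes and 4 formyl peptide receptor genes. A stretch of 2.99 Mb on X (X:81085606-84076521) contains the 5′ end of *Dmd*, the dystrophin gene, whose 5 peaks, 1 of them at an internal TSS, lay further along the gene.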

How the data were processed

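ATAC-seq was done in 3 samples. Per the labels and methods, the authors trimmed reads with Cutadapt, aligned them to mm10 with Bowtie2, removed duplicates with Picard 1.119 and reads without a unique position, and retained pairs whose inner distance was at most 120 bp. They called peaks with MACS2 and deposited the start and end of each consensus peak, as base positions without a signal or score. Removal of peaks in repeats is stated for contaminated CUT&RUN samples, and whether it applied to ATAC is not clear. Starts were read as 1-based.

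Genes came from GENCODE M21, sequence from GRCm38.p6 and tRNA genes and promoters from RefSeq. Promoters of 16539 of 21938 genes matched by symbol. No ATAC peak ended past its chromosome. A TSS shared by several genes went to the first in order. The 60 gene lists, 15 by members and 45 by symbol, and the members were chosen with earlier results of these data known. Genes named are the extremes of each ranking, exceptions in lists, and *Runx3*, *Ntrk3*, *Pou4f1* and *Isl1*. Further list members, chosen after their values were seen, are given as examples. No test was run, since 1 merged list has no replicates. Code equaled brute force in simulated data in 8000 of 8000 nearest TSS, 12000 of 12000 overlaps and 3200 of 3200 promoter calls. Python 3.11.15, numpy 2.4.6, scipy 1.17.1 and matplotlib 3.10.9 were used.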

Additional observations from a re-analysis of the deposited data

How the results depend on the processing

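Of 144 counts recomputed, each under 1 changed choice, 132 stayed within 1.5 times of the value reported. The rest came from 4 choices. With peaks of at least 200 bp, which kept 33077 peaks, there were 18657 distal peaks, 5099 of them at over 100 kb, the densest 1 Mb bin held 70 peaks, X had 761 peaks, 217 genes had 10 or more distal peaks, the highest count was 36, in *Zfp608*, and 161 genes had a closed promoter with 5 or more distal peaks. With the nearest TSS within 100 kb only, those 2 gene counts were 377 and 320, and with GREAT domains, in which a peak can belong to several genes, 2592 and 1153. With 1 TSS per gene, 845 genes had a closed promoter with 5 or more distal peaks. The limit of 100 kb gives no peak beyond 100 kb by construction, so no value is given for it. Of the 20 genes with the most distal peaks, 6 were also in the first 20 under the 100 kb limit, 7 under GREAT domains, 14 with peaks of at least 200 bp and 15 with 1 TSS per gene. Of 264 counts of distal peaks for these 20 genes and the 4 lineage genes, 55 moved by over 1.5 times, among them *Ptprd*, which came to 17 under GREAT domains. Of 660 shares of open promoters in lists, 631 stayed within the Wilson interval. With peaks of at least 200 bp, open promoters came to 45% of spinal cord and brain TF genes, 66.7% of mesenchyme markers and 0.529% of olfactory receptor genes. The ATAC list is 1 consensus of 3 samples, so leaving out a replicate was not possible. No paired analysis was possible because the replicates were merged into 1 list and no test was run. Without depth, a closed promoter says only that no consensus peak was called there.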

Other observations

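Beyond protein-coding genes, 2405 of the 44775 distal peaks (5.37%, 5.17–5.58%) lay within 1 kb of the 5′ end of another gene annotated in GENCODE, and 1190 of these (49.5%) overlapped H3K27Ac. Among genes more than 2 kb from any protein-coding TSS, an ATAC peak lay at the 5′ end of 740 of 5401 long intergenic noncoding RNA genes (13.7%) and 271 of 1873 antisense genes (14.5%). The share was 110 of 1892 for miRNA genes (5.81%), 59 of 1307 for snRNA genes (4.51%) and 296 of 9730 for processed pseudogenes (3.04%). Distal peaks lay at 17.3 per Mb beyond the promoter windows, so some windows would hold a peak by position alone. The share at random positions was not measured, so none of these shares can be read as opening of a gene class.

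Of the 64227 ATAC peaks, 4538 (7.07%) shared a run of 25 bases with another peak. Genes with at least 10 distal peaks and the highest share of such peaks were *Dynlt1b* on chromosome 17 and the predicted gene *Gm21887* on X, with 10 of 10 each, followed by *Fcgr3* with 13 of 14, *Gm47283* with 13 of 14 and *Olfr1507* with 22 of 24. Among the 20 genes with the most distal peaks the count ran from 0 of 56 in *Robo1* to 3 of 35 in *Zfp36l1*.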
